A study of Xenopus laevis with 6 samples.

Results

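Bone morphogenetic proteins (BMPs), Nodals and activins are secreted ligands of the TGF-beta superfamily. A ligand dimer joins type I and type II receptor kinases at the cell surface, the type I receptor phosphorylates a receptor-regulated Smad, and that Smad enters the nucleus with the common Smad4 to switch on target genes. In the frog gastrula, BMPs act through Smad1, Smad5 and Smad9 and give ventral identity, while Nodals and activin act through Smad2 and Smad3 and induce mesoderm and endoderm. The dorsal organizer secretes proteins that bind the ligands, and tolloid proteases cut one of these, chordin, and so release BMP again.

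The genes described here are 59 ligands, extracellular antagonists and proteases, receptors and Smads of these pathways, chosen by name. A probe set belonged to them when the platform annotation gave it a single gene symbol and that symbol, without the suffix L or S, was on the list. This found 84 of the 32539 probe sets that are not Affymetrix controls. They measured 48 of the 59 genes, in 62 gene copies, 36 with the suffix L and 26 with the suffix S. The suffixes mark the subgenomes of this allotetraploid frog.

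The series has 6 samples of whole Xenopus laevis embryos, taken at stage 10.5 of Nieuwkoop and Faber, the early gastrula. In the control group of 3 samples, embryos had received 20 ng of a mispaired morpholino (an antisense oligonucleotide used as the control) at the 2-cell stage. In the other group of 3, they had received 20 ng of an Ext1 morpholino at the same stage; ext1 encodes exostosin 1, a polymerase of heparan sulfate chains. Each RNA sample was a pool of 5 embryos, no strain is named in the labels, the morpholino sequences are not used here, and no stage or treatment other than the morpholino separates the groups.

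The groups could not be compared, because the 6 columns of the deposited table were proportional. In all 30 ordered pairs of columns, 1 constant turned one column into the other for every one of 32635 probe sets within the rounding of the last decimal. The BMP antagonist gene chrd.1.S shows what this means for a member. Its signal was 2201.63, 2182.02 and 2242.96 in control samples 1, 2 and 3, and 2178.22, 2254.25 and 2248.55 in Ext1 morpholino samples 1, 2 and 3. The ligand gene bmp4.S, at its brighter probe set, ran 2141.63, 2122.56 and 2181.84 in the controls and 2118.87, 2192.82 and 2187.27 in the Ext1 morpholino columns. Both genes were lowest in Ext1 morpholino sample 1 and highest in Ext1 morpholino sample 2, and the column constants set this order for every gene, up to rounding. The values below are therefore means of the 6 columns, read as 1 profile with n = 1, no error and no group.

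**Figure D1:**
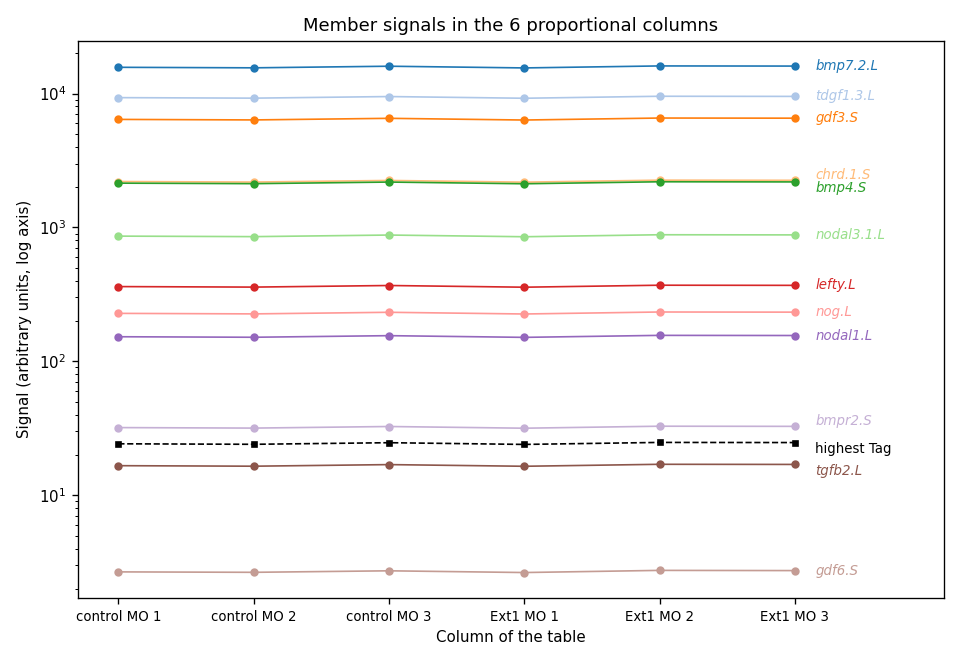
Signal (arbitrary units, log axis) of 12 member gene copies at their brightest probe set in each of the 6 columns of the table, with the highest Tag control as black squares. All lines have the same shape, because the columns differ by 1 constant each; the highest Tag control lies between 23.98 and 24.82.

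Signals were read against a floor, set by 17 control probe sets for synthetic Tag sequences: their highest signal. It was 24.4 in the mean profile. A signal above it is called detected below. This is a rough guide, because background and response vary from one probe set to another. Brightest sets, bands, medians and ranges below describe signals only. Their order across probe sets is not read as an order of RNA amounts. In RNA from whole embryos, fewer cells that express a gene and less RNA per cell cannot be told apart.

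Most of the measured part of the pathway was detected, while 11 of the 59 genes had no probe set with 1 symbol. Of the 84 probe sets, 70 lay above the floor (83.3%), beside 72.0% of all probe sets and 78.6% of probe sets with 1 symbol. Taking the brightest probe set of each gene copy, 54 of 62 copies lay above it (87.1%), beside 80.4% of the 11303 named copies of the table. The median signal of the member copies was 337.41, and that of all named copies was 357.63. At 2 times the floor 52 of 62 member copies remained (83.9%), beside 74.1% of all named copies. At 4 times the floor the counts were 47 of 62 member copies (75.8%), beside 67.8% of all named copies. The members thus passed the floor at a share near that of the other named genes, and no test was made of the difference. Since the columns are proportional, each gives the same calls against its own Tag controls by construction.

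**Figure D2:**
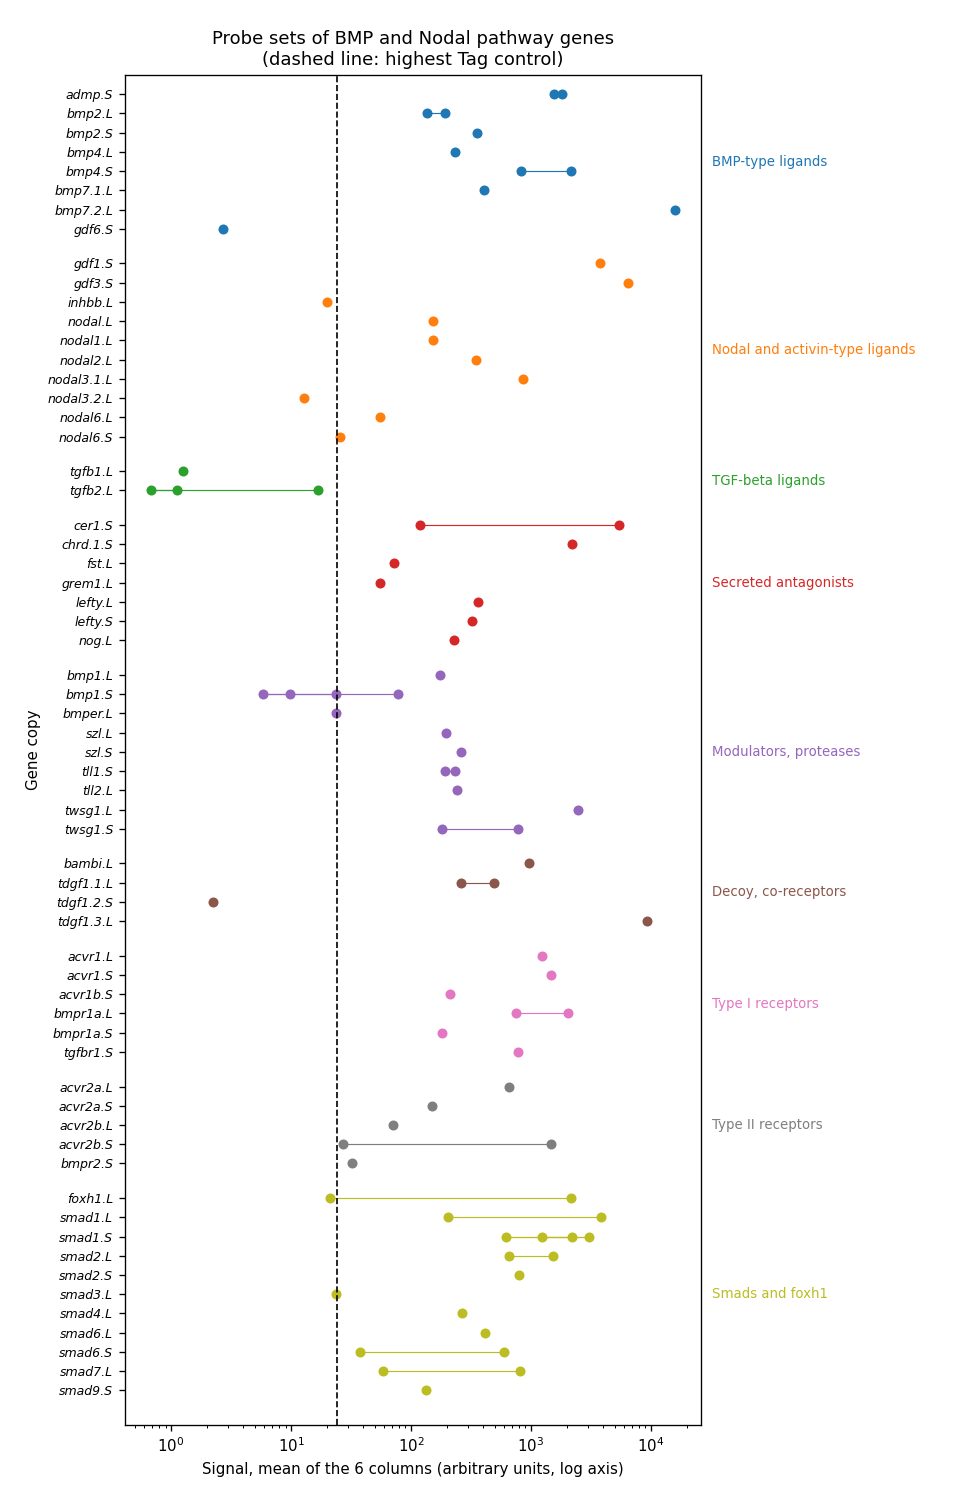
Signal (mean of the 6 columns, arbitrary units, log axis) of all 84 probe sets, 1 row per gene copy, coloured by role, with a line joining the probe sets of 1 copy. The dashed line is the highest Tag control (24.4). To its right, 8 copies have no probe set, among them the TGF-beta ligand copies tgfb1.L and tgfb2.L.

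BMP-type ligands were detected in 7 of 8 copies. This and the counts of the other roles stand against 80.4% of all named copies, and none was tested. The brightest probe set of bmp7.2.L, one of a pair of bmp7 genes, was at 15808.81, and that of bmp7.1.L was at 407. For bmp4, the ligand best known for ventral patterning, the S copy was read at 2157.5 and 829.92 and the L copy at 230.93. For bmp2, a ligand close to bmp4 in sequence, the S copy was at 355.74, and the L copy gave 194.09 and 135.99. The gene admp.S encodes a BMP-like ligand made in the organizer itself. Its probe sets were at 1816.3 and 1548.42, so both readings of this gene were well clear of the floor. The copy at background was gdf6.S, which encodes a BMP-type ligand, at 2.7.

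Nodal and activin-type ligands were detected in 8 of 10 copies. The signal was 3772.8 for gdf1.S, which encodes Vg1, a ligand whose RNA is stored at the vegetal pole of the egg, and 6454.28 for gdf3.S, which encodes derriere, a ligand of posterior mesoderm. The mesoderm-inducing Nodal genes nodal1.L and nodal2.L were at 153.85 and 351.67, and nodal.L, also called Xnr4, was at 152.83. For nodal6, a Nodal gene switched on early by the maternal factor VegT, nodal6.L was at 54.88, above 2 times the floor (48.84). The other copy, nodal6.S, was near the floor at 25.62. The nodal3 genes encode divergent Nodals that are Wnt-responsive markers of the organizer. Of these, nodal3.1.L was at 867.71 (861.33, 853.65 and 877.5 in control columns 1, 2 and 3, and 852.17, 881.91 and 879.68 in the Ext1 morpholino columns). The signal of nodal3.2.L was 12.9. One probe set assigned to each gene alone was read, one far above the floor and one below it. A further set, assigned to both genes together, was at 775.27 and gives no value for either. The activin subunit gene inhbb.L was at 20.13, under the floor.

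The TGF-beta ligands proper were not detected in any probe set. The signal of tgfb1.L was 1.26, and the probe sets of tgfb2.L were at 16.76, 1.13 and 0.68. These genes are the only role group here with measured copies and none above the floor. For each gene only the L copy was measured, so this rests on 2 copies. The tgfb2.L set at 16.76 lay above the median Tag control (2.62), so its call depends on the choice of floor.

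Secreted antagonists were detected in all 7 measured copies, beside 80.4% of all named copies; with so few copies, nothing is read from this share. Chordin, which binds BMP, had chrd.1.S at 2217.94. Noggin, another BMP-binding protein of the organizer, had nog.L at 229.92. The gene cer1.S, which encodes Cerberus, an inhibitor of Nodal, BMP and Wnt, was at 5447.53 in one probe set and 119.64 in the other. Lefty, a feedback inhibitor of Nodal, had lefty.L at 364.42 and lefty.S at 323.14. Follistatin, which binds activin, had fst.L at 72.92, and gremlin, a BMP antagonist, had grem1.L at 55.57. These last copies were above the floor but under 100.

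Modulators of chordin and the proteases that cut it were detected in 8 of 9 copies. Twisted gastrulation, which binds both BMP and chordin, had twsg1.L at 2484.62 and twsg1.S at 782.96 and 181.24. Sizzled, a ventral inhibitor of the tolloid proteases, had szl.S at 262.62 and szl.L at 197.96. The gene bmper.L encodes a chordin-type BMP-binding protein and was at 23.89, just under the floor. Tolloid-type proteases were at 242.58 for tll2.L, 232.48 and 192 for tll1.S, and 176.16 for bmp1.L. The other protease copy, bmp1.S, was read by 4 probe sets at 78.36, 23.66, 9.72 and 5.82, so 1 of the 4 passed. All protease copies lay under 1000.

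At the membrane, receptors were detected in all 11 measured copies of 7 genes, again beside 80.4% of all named copies. Among type I receptors, which phosphorylate the Smads, bmpr1a.L was at 2060.35 and 758.85 and bmpr1a.S at 182.19. The gene acvr1, a type I receptor for BMPs also called ALK2, gave 1469.44 for acvr1.S and 1230.5 for acvr1.L. On the Nodal side, acvr1b.S, the activin and Nodal receptor ALK4, was at 210.29. The gene tgfbr1.S, which encodes the TGF-beta receptor ALK5, was at 786.4, while the ligand copies tgfb1.L and tgfb2.L were under the floor. The S copies of these ligand genes were not measured. Type II receptors bind ligand and activate type I. Their signals were 662.14 and 150.16 for acvr2a.L and acvr2a.S, 70.99 for acvr2b.L, and 1470.51 and 27.13 for the probe sets of acvr2b.S. The BMP type II receptor gene bmpr2.S, at 32.27, was above the floor but did not pass 2 times the floor (48.84).

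Co-receptors and the decoy receptor were detected in 3 of 4 copies. Cripto proteins of the tdgf1 family are co-receptors that Nodals need. Their signals were 9385.36 for tdgf1.3.L, 490.05 and 262.35 for tdgf1.1.L, and 2.24 for tdgf1.2.S. The decoy receptor gene bambi.L, a BMP-induced pseudoreceptor without a kinase, was at 963.87.

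Smads and foxh1 were detected in 10 of 11 copies. For smad1, which carries BMP signals, smad1.L was at 3845.87 and 203.86, and the 4 probe sets of smad1.S were at 3054.28, 2189.54, 1229.07 and 617.59. All 4 were above the floor, unlike those of bmp1.S. The BMP Smad gene smad9.S was at 132.57. For smad2, which carries Nodal signals, smad2.L was at 1528.79 and 651.24 and smad2.S at 804.14. The related smad3.L was at 23.7, just under the floor. The common Smad gene smad4.L was at 267.8. Inhibitory Smads dampen the pathway and are themselves induced by it. Their signals were 417.46 for smad6.L, 593.99 and 37.42 for smad6.S, and 818.86 and 59.06 for smad7.L. The gene foxh1.L encodes the forkhead partner of Smad2 and gave 2182.75 in one probe set and 21.16 in the other, on opposite sides of the floor.

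**Figure D3:**
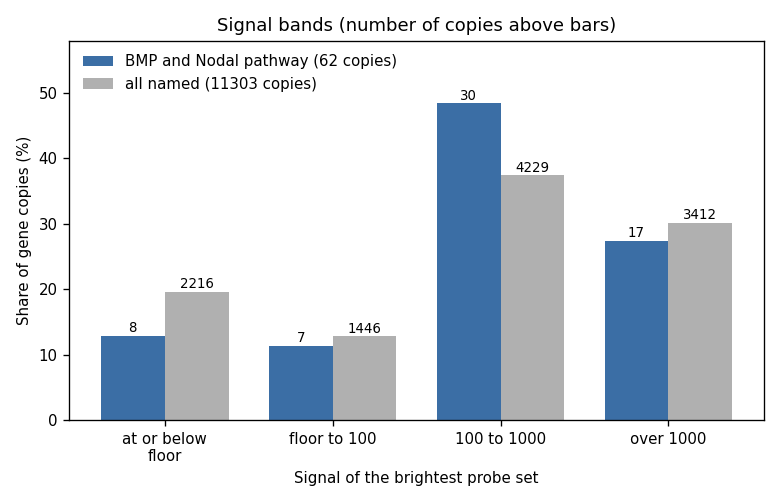
Share of gene copies (%) by the signal of their brightest probe set, for the 62 member copies (blue) and all 11303 named copies (grey), with the number of copies above each bar. Between 100 and 1000 lie 30 member copies (48.4%, against 37.4% of all named copies), and over 1000 lie 17 (27.4%, against 30.2%).

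Several probe sets of 1 copy often differed widely. Of the 62 copies, 45 had 1 probe set and 17 had several. In 2 of the 17, bmp1.S and foxh1.L, the probe sets lay on both sides of the floor. Taking the lowest instead of the brightest probe set left 52 of 62 copies above it. A suffix in the probe set name tells how specific it was designed to be. Among the members, 63 end in _at, for a unique target, and 15 in _a_at, for transcripts of 1 gene. The other 6 end in _s_at (2) or _x_at (4), for probes that can match other transcripts. The only probe set of bmp4.L is an _x_at set, as is the brighter one of bmp4.S.

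Both subgenome copies were measured for 14 genes, and in all 14 both lay above the floor at their brightest probe set. The sets for acvr2b read 70.99 for L and 1470.51 and 27.13 for S, those for bmp4 230.93 for L and 2157.5 and 829.92 for S, and those for bmpr1a 2060.35 and 758.85 for L and 182.19 for S. These are readings of different probe sets, so they say only that each copy had a set above the floor. For bmp4.L that set is of the _x_at type and can match other transcripts, so it may not read this copy alone. No count of genes with both copies above the floor was made over the whole table. That all 14 passed is therefore not read as a trait of these genes.

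**Figure D4:**
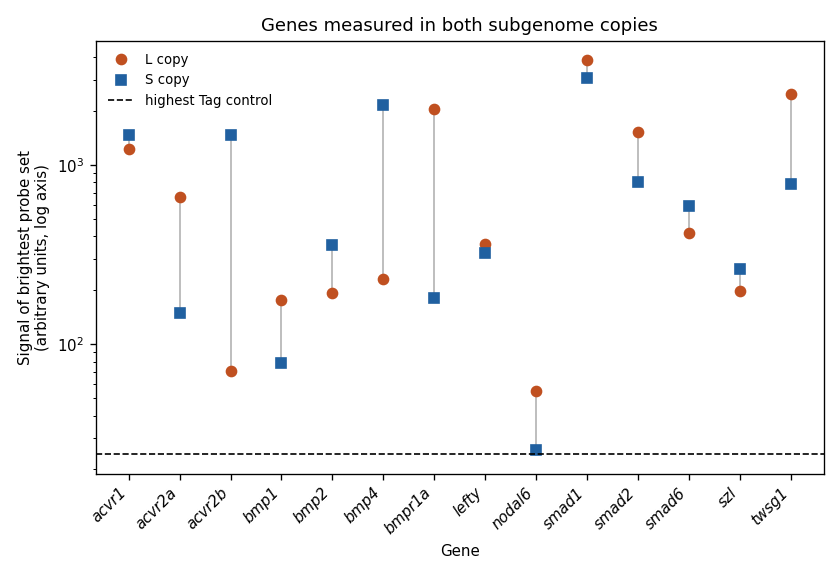
Signal of the brightest probe set (arbitrary units, log axis) for the L copy (circles) and the S copy (squares) of the 14 genes measured in both, with the highest Tag control dashed. All points lie above it, the lowest being nodal6.S at 25.62.

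The array also holds probe sets that the platform assigns to several genes at once, and these stand outside the counts above. There were 10 with a member among their symbols, all of the _s_at type, and all 10 lay above the floor, from 92.75 to 5358.79. For 7 of them the symbols were the L and S copies of 1 gene. The one shared by the szl copies was at 1908.65, while the sets assigned to a single szl copy were at 262.62 and 197.96. The one shared by the bambi copies was at 5358.79, beside 963.87 for the set of bambi.L alone. The one shared by nodal3.1.L and nodal3.2.L was at 775.27. A set shared by nodal5.L and its near copies was at 92.75, and one whose symbols are forms of smad4.2 was at 534.92; neither gene had a set of its own. A shared set gives no value for either copy. The share above the floor among all 279 probe sets with several symbols was not computed, so nothing is read from the count of 10.

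Some of the pathway was not measured by probe sets with 1 symbol. A RefSeq gene list (assembly Xenopus_laevis_v10.1) names 97 copies of 56 of the 59 genes, and 62 of the 97 were measured. The 11 genes with no such probe set were acvr1c, bmp5, bmpr1b, chrd, inhba, nodal5, smad4.1, smad4.2, smad5, tgfbr2 and tgfbr3. Of these names, the RefSeq list gives chrd as a synonym of chrd.1.S and smad4.1 as one of smad4.L, which were both measured. They include Smad5, the type I receptor BMPR1B and the activin subunit of inhba, about which the profile says nothing here. For 20 genes measured in 1 copy, such as chrd.1, nog, bmpr2 and bmp7.2, the list names the other copy too. In the gene order of this assembly, nodal2.L lies next to nodal1.L and smad6.L next to smad3.L. Of the latter neighbours, smad6.L was above the floor (417.46) and smad3.L was not (23.7).

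The rest of the pathway was read from lists of genes that are not members. These were chosen with earlier results of these data known, so their shares are no independent result. Other extracellular parts included further ligands, antagonists, a co-receptor and the proprotein convertases that mature the ligands. They were detected in 12 of 23 copies (52.2%), below the 80.4% of all named copies. At 2 times the floor 11 of 23 remained (47.8%), beside 74.1% of all named copies, and neither difference was tested. The copies under the floor included the ligand genes bmp3.L (4.32), gdf5.L (10.62), gdf7.S (13.1), gdf10.L (13.75) and bmp6.S (21.14). Signals of the sets ran from 1 for fstl1.L to 1248.83 for rgma.L, a BMP co-receptor gene, with 1015.01 for dand5.S, which encodes the Nodal and BMP antagonist Coco. Also under it were ltbp1.S, tmeff1.S, tmeff2.L, tgfbi.L and crim1.L, between 6.78 and 21.26. Intracellular regulators were detected in 22 of 23 copies (95.7%, beside 80.4% of all named copies), and in 20 of 23 at 2 times the floor, beside 74.1%. Their signals ran from 8.5 for trim33.S and 32.78 for tab1.L to 3718.18 for ctdnep1.S and 8100.76 for tgif2.S. The other trim33 copy, trim33.L, named after its value was seen, was at 593.61.

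Genes known as BMP targets were detected in 23 of 23 copies and genes known as Nodal targets in 35 of 36. The share of all named copies was 80.4%. At 2 times the floor the counts were 20 of 23 and 35 of 36, beside 74.1% of all named copies. Signals of the BMP target sets ran from 36.29 for hes1.S and 36.89 for tbx3.L to 8053.47 for tfap2a.L and 13517.08 for id3.S. The other copies of the low genes, hes1.L and tbx3.S, named after their values were seen, were at 682.22 and 46.33. Among Nodal targets the probe set named frzb without a copy suffix was at 15.35, under the floor, while frzb.L and frzb.S, named after their values were seen, were at 901.53 and 1682.71. Marker lists for the labelled stage were counted in the same way. Gastrula markers were detected in 19 of 19 copies, of which 13 were already counted as BMP or Nodal targets. Markers of later stages were detected in 1 of 16, which was pax6.L at 104.83. The target and marker lists were chosen with earlier results of these data known. Their counts are therefore no independent check of the pathway or of the stage. The gastrula list also includes vegt, the gene of the maternal factor named above.

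**Figure D5:**
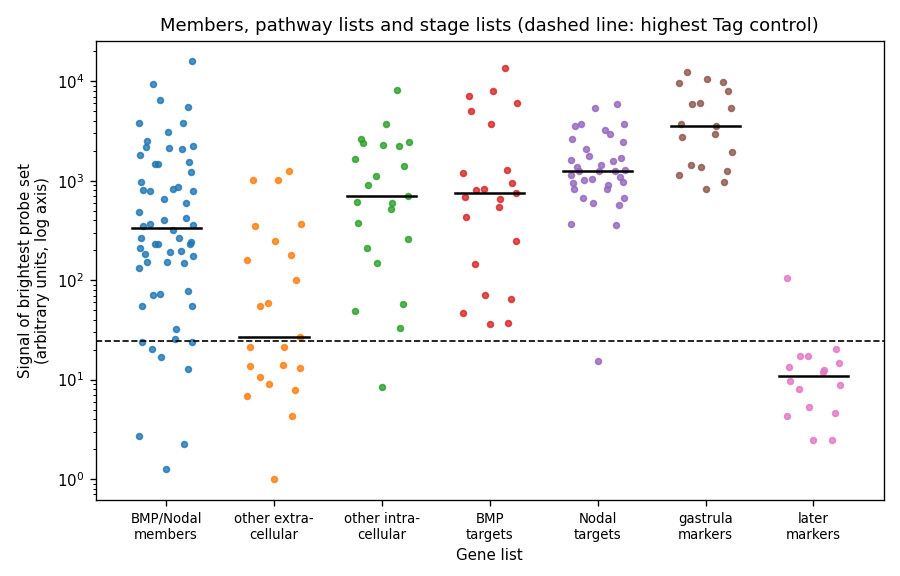
Signal of the brightest probe set (arbitrary units, log axis) for each copy of the members, the other pathway lists and the stage lists; points are gene copies, bars are medians, and the dashed line is the highest Tag control. The median is 26.59 for other extracellular genes, 698.05 for intracellular regulators, 756.4 for BMP targets, 1256.23 for Nodal targets, and 10.79 for later markers.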

How the data were processed

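As labelled, RNA of 6 whole-embryo pools was measured on Affymetrix Xenopus laevis Genome 2.0 arrays. The deposited columns hold 1 profile up to a constant, and they do not tell which pool it came from. The authors deposited linear intensities, 1 signal per probe set, made with MAS5 per the submitters' processing notes. For its version and scaling target, the sources used here give nothing. Of 32539 probe sets without the 96 controls, 15495 had 1 platform symbol, 279 several and 16765 none. The gene IDs of all 84 member probe sets were in the RefSeq list under the same symbol.

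Columns were called proportional when 1 factor fitted every probe set with each value within 0.005 of that printed. This check was tested on simulated data. The columns were then averaged. No group test was made and no p-value computed. Precision is limited by the number of distinct profiles, here 1. The floor is the highest of the 17 Tag controls, and a gene copy takes its brightest probe set. Every measured member copy is named, with all its probe sets where a copy has 3 or more or lies on both sides of the floor, and others where they differ. Members and lists were chosen with earlier results of these data known. Alternatives were other floors, scaling, columns left out, current symbols, specific probe sets, and the lowest or median probe set. Sequences are not shown, since none were used. Python 3.11.15, numpy 2.4.6, pandas 2.3.3 and matplotlib 3.10.9 were used.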

Additional observations from a re-analysis of the deposited data

How the results depend on the processing

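No paired analysis was possible because the columns of a pair are proportional. Under the other floors and choices of probe set, every count run stayed within 1.5 times its value. Most members already lay above the floor, so no member count could rise past this limit. For these counts only a fall could have passed the limit. Lower floors could raise them, but not past it. Member counts by role were run only at 2 times the floor, with current symbols, and without _s_at and _x_at sets. They were not run at the lower floors. Lists of genes that are not members were run only at 2 times the floor and without _s_at and _x_at sets. The median Tag control (2.62) was not tried on these lists, where extracellular copies such as bmp3.L (4.32) and bmp6.S (21.14) lie above it. Member probe sets above the floor numbered 70 of 84, between 60 (4 times the floor) and 80 (median Tag control, 2.62), and 66 of 78 without _s_at and _x_at sets. Member copies numbered 54 of 62, between 47 and 60, and 53 with the median probe set of each copy. The second highest Tag control (23.38) gave 73 probe sets and 56 copies. For probe sets, shares over the whole table were computed at the floor only, and for named copies also at 2 and 4 times the floor. The other counts have no such share beside them, so they do not set the members apart from other genes. Leaving out any 1 column or median scaling left 70 and 54, which proportional columns make certain, so this says nothing on stability. Current symbols also gave 70 and 54. At 2 times the floor, detected receptor genes went from 7 to 6, other role groups kept their number of genes, and copies of BMP targets went from 23 to 20 and of intracellular regulators from 22 to 20. With any other column as base, 0 probe sets departed from proportionality. The number of columns does not add precision, and each signal near the floor, such as bmper.L (23.89), smad3.L (23.7) and nodal6.S (25.62), can change side with a small change of floor.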

Other observations

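In the RefSeq list, 1 of the 97 member copies carries a suffix that differs from the subgenome of its chromosome: gdf1.S, which encodes Vg1, is placed on an L chromosome and has a synonym with the suffix L. Its probe set was at 3772.8 in the mean profile.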
